A study of Mus musculus with 6 samples.

Results

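S100 calcium-binding protein genes and vimentin were followed through RNA sequencing of cultured mouse cells. The group held 9 genes, chosen by symbol from the 24672 genes of the deposited table, namely S100a1, S100a4, S100a6, S100a8, S100a9, S100a10, S100a11, S100a13 and Vim. They were proposed with the expression values of the same comparison in view, so their differences between groups are given below as descriptions, with no test of their own. Of the 9 genes, 6 passed the filter on low values (a mean over all libraries of at least 1 FPKM), while S100a8, S100a9 and S100a11 did not.

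The libraries came from 2 groups of 3, made from C57BL/6 cells of late passage. Dif-FGSC are labelled as differentiated female germline stem cells: FGSC were freed of their feeder cells and seeded on mitotically inactivated granulosa cells in a serum medium holding bone morphogenetic protein BMP4 and basic fibroblast growth factor bFGF at 10 ng/mL each, with retinoic acid at 0.1 µmol/L. FGSC are labelled as female germline stem cells, proliferating cells of the ovary, and were kept on mitotically inactivated STO fibroblasts in a serum medium holding LIF, bFGF and GDNF at 10 ng/mL each and EGF at 20 ng/mL. Feeder cells, growth factors and retinoic acid therefore differ together between the groups and cannot be told apart. The series is about the start of meiosis under retinoic acid and the folding of chromatin. Whether the 3 libraries of each group stem from separate cultures is not labelled, so errors and p-values cover the library-to-library spread alone, which may be technical.

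The labelled cell type was checked against marker genes, and the germ cell markers were nearly absent. The helicase gene Ddx4 peaked at 0.0091 FPKM in Dif-FGSC and 0.010 FPKM in FGSC, and Dazl, which encodes a regulator of translation in germ cells, was listed at 0 in all 6 libraries. Of 16 germ cell markers, 13 stayed below 0.1 FPKM in every library, and the list summed to 0.818 to 1.03 FPKM in Dif-FGSC and 0.101 to 0.358 FPKM in FGSC. Transcripts of blood cells were present in both groups: Ptprc, the leukocyte phosphatase CD45, averaged 17.6 ± 0.544 FPKM in Dif-FGSC and 14.02 ± 0.701 FPKM in FGSC (SD, n = 3 each). The names Dif-FGSC and FGSC are used below only as the labels give them. Depth, estimated from the steps between low values, was 19.5 to 22.5 M fragments in Dif-FGSC and 17.2 to 27.3 M in FGSC, where M stands for mega.

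S100 proteins are small calcium sensors of vertebrates built from a pair of EF-hand motifs. Most act as dimers that bind target proteins when calcium rises in the cell, and some are also released and bind receptors outside it. Vimentin is the intermediate filament protein of mesenchymal cells and leukocytes, and both Vim and S100a4 are widely used as markers of fibroblasts and of the transition of epithelial cells to a mesenchymal state. The genes S100a8 and S100a9 encode calprotectin, the main calcium-binding protein of neutrophils.

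Upstream sequences are shown for 4 genes because they set expressed genes (S100a4, Vim) beside a gene listed at 0 (S100a8) and one near the detection floor (S100a11). Each is the 250 bases before the annotated start from RefSeq (build GRCm38.p6), read 5′ to 3′ on the gene's strand. The windows lie at chr3:90603520-90603769 for S100a4, chr2:13574061-13574310 for Vim, chr3:90668821-90669070 for S100a8 and chr3:93520246-93520495 for S100a11, all on the plus strand. Capitals mark matches on either strand to TATAAA (the TATA box), AGGTCA (the hexamer bound by nuclear receptors such as the retinoic acid receptors) and TGANTCA (the AP-1 motif bound by Fos and Jun proteins).
S100a4: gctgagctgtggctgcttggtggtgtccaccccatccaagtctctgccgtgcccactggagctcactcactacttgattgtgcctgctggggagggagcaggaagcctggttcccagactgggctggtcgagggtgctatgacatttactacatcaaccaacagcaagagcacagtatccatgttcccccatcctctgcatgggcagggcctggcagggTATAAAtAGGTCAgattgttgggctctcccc
Vim: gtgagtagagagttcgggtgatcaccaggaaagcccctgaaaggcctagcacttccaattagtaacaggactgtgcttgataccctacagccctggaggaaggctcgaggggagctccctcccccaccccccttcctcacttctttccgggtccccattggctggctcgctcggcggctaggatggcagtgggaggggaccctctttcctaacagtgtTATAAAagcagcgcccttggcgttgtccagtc
S100a8: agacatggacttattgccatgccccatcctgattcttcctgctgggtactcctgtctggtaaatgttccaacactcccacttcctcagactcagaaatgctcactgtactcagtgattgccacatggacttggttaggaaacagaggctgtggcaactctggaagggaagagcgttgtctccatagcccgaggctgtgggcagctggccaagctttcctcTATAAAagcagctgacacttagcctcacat
S100a11: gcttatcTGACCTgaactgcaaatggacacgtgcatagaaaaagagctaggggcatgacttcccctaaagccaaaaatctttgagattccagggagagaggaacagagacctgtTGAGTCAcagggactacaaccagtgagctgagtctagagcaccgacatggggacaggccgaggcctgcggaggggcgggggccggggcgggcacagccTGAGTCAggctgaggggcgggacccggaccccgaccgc

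TATAAA lay at -31 to -26 before the start of S100a4, at -32 to -27 before Vim and at -30 to -25 before S100a8, so the expressed genes and the gene listed at 0 share it at nearly the same place. In S100a4 the hexamer AGGTCA followed at -24 to -19. S100a11 held 2 copies of TGAGTCA, at -136 to -130 and at -38 to -32, 3 copies of the GC box GGGCGG, and the hexamer in the opposite strand as TGACCT. None of the 5 motifs searched, the fifth being the C/EBP motif TTGCNNAA, matched in the window of S100a6, S100a1 or S100a13. The window of S100a9, a gene listed at 0, held the C/EBP motif as TTGCTTAA at -236 to -229. It also held GGGCGG at -223 to -218. Among 32851 upstream windows of the same length, 12.4% held TATAAA, 6.75% TGANTCA, 32.7% GGGCGG and 9.56% TTGCNNAA, counting both strands, and 4607 of them held AGGTCA. The letters of these motifs do not coincide in the windows shown. These matches describe the letters and are not binding sites. Windows were found for 8 of the 9 genes. S100a10 had none, so its upstream sequence was not searched.

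S100a10 and S100a4 had the largest log2 differences of the 6 tested members. S100a10 encodes a subunit that does not bind calcium itself and forms a complex with annexin A2 at the membrane. It stood at 21.7, 22.3 and 23.3 FPKM in Dif-FGSC and at 3.43, 4.57 and 3.89 FPKM in FGSC. Every Dif-FGSC library was above every FGSC library by a wide margin, and the means were 22.4 ± 0.775 and 3.96 ± 0.569 FPKM in Dif-FGSC and FGSC (SD, n = 3 each). The ratio of the means was 5.66 and the log2 difference 2.25 ± 0.079 (SE), on the log2(FPKM + 1) scale used for all log2 differences here, which understates the change of low genes. The values correspond to about 300 to 330 fragments per library in Dif-FGSC and 46 to 68 in FGSC, so counting error is small beside the difference. Ranked by log2 difference, S100a10 was the 32nd of 9162 tested genes.

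S100a4, also called metastasin, binds non-muscle myosin and is a marker of motile cells. It stood at 217, 243 and 239 FPKM in Dif-FGSC and at 86.4, 78.7 and 85.0 FPKM in FGSC. The groups did not overlap, and the lowest Dif-FGSC library was more than double the highest FGSC library. Means were 233 ± 14.4 FPKM in Dif-FGSC and 83.3 ± 4.10 FPKM in FGSC (SD, n = 3 each), a ratio of 2.80 and a log2 difference of 1.47 ± 0.053 (SE). It ranked 79th of the 9162 tested genes by log2 difference.

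S100a6, calcyclin, is a growth-related S100 protein that binds the calcyclin-binding protein encoded by Cacybp. It stood at 229, 239.7 and 243 FPKM in Dif-FGSC and at 155, 170.4 and 178 FPKM in FGSC. The groups did not overlap, but the FGSC libraries were spread more widely than the Dif-FGSC libraries. Means were 237 ± 7.50 FPKM in Dif-FGSC and 168 ± 11.8 FPKM in FGSC (SD, n = 3 each), a ratio of 1.41 and a log2 difference of 0.50 ± 0.052 (SE).

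Vim was the most abundant of the 9 genes and the steadiest within groups. It stood at 597, 604 and 599 FPKM in Dif-FGSC and at 475, 473 and 476 FPKM in FGSC. The libraries of a group lay within 1% of their mean (coefficients of variation 0.583% in Dif-FGSC and 0.32% in FGSC), so the groups were far apart relative to their spread. Means were 599.7 ± 3.49 FPKM in Dif-FGSC and 475 ± 1.52 FPKM in FGSC (SD, n = 3 each), a ratio of 1.26 and a log2 difference of 0.34 ± 0.021 (SE). After quantile normalization, which resets the most abundant genes, the log2 difference was 0.58.

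S100a1 and S100a13 differed less. S100a1, best known from heart and skeletal muscle where it acts on calcium release, stood at 3.09, 2.98 and 2.87 FPKM in Dif-FGSC and at 2.201, 1.56 and 2.62 FPKM in FGSC. The groups did not overlap, though the gap between them was small beside the scatter of the FGSC libraries. The ratio of the means was 1.40 and the log2 difference 0.36 ± 0.12 (SE). S100a13, which takes part in the release of proteins that lack a signal peptide, stood at 10.6, 10.7 and 8.81 FPKM in Dif-FGSC and at 10.1, 9.26 and 8.68 FPKM in FGSC. The groups overlapped, and the log2 difference was 0.09 ± 0.080 (SE). The 2 genes start next to each other on opposite strands: the annotated windows of 300 bases around their starts share 204 bases. From these starts the genes run away from each other, so the shared bases are not an overlap of transcripts from these starts. No source used here gives the strand setting of the counting, and the assignment of reads near these starts was not tested.

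The remaining members were at or near the detection floor. S100a11, which binds annexin A1, stood at 0.176, 0.202 and 0.40 FPKM in Dif-FGSC and at 0.218, 0.091 and 0.342 FPKM in FGSC, about 2.0 to 4.0 fragments per library in Dif-FGSC and 1.0 to 3.0 in FGSC. No difference was detectable at this depth. An annotated pseudogene copy, S100a11-ps, adds to the uncertainty of so low a value. S100a8 and S100a9 were listed at 0 in all 6 libraries. A count of 3 fragments would correspond to 0.27 to 0.31 FPKM of S100a8 in Dif-FGSC libraries and 0.22 to 0.35 FPKM in FGSC libraries, so levels below these were not detectable at this depth. These floors cover counting error only.

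**Figure D1:**
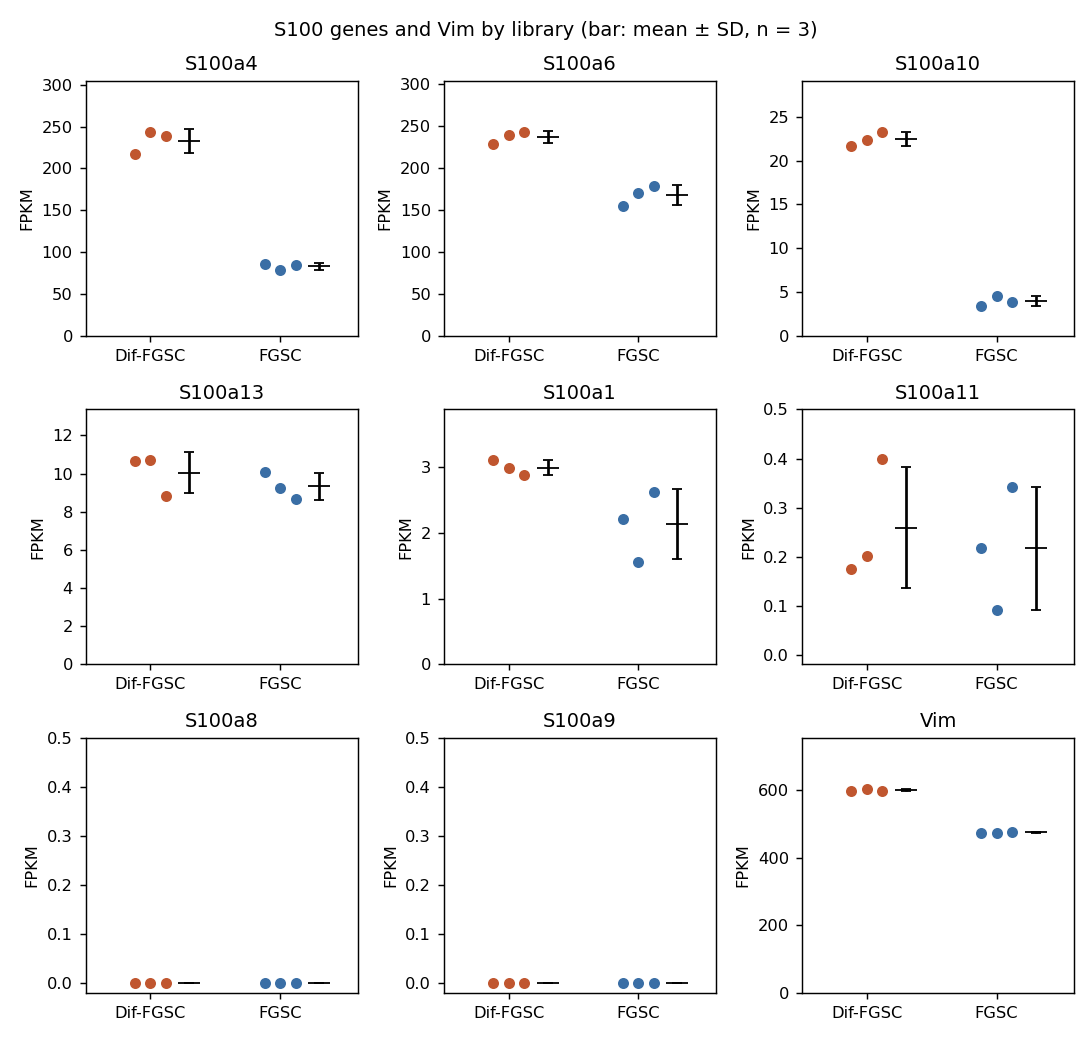
FPKM of each gene in each library, Dif-FGSC left and FGSC right, on linear axes with a range of their own per gene; points are libraries and the bar beside them is the mean ± SD (n = 3). S100a10, S100a4, S100a6, S100a1 and Vim have groups that do not overlap, S100a13 and S100a11 overlap, and S100a8 and S100a9 are listed at 0.

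In the fit across all 9162 tested genes (limma, Benjamini-Hochberg adjusted p under 0.05), 5 of the 6 tested members were called higher in Dif-FGSC, none lower, and S100a13 was not called. Of all tested genes, 36.5% were called higher, 28.6% lower and 65.1% in either direction, so a call is common in this comparison. Groups did not overlap, with Dif-FGSC higher, for the same 5 members and for 39.6% of all tested genes (70.7% in either direction). The median log2 difference was 0.43 over the 6 tested members and 0.03 over all tested genes. Because the members were chosen with these values known, nothing is read from these counts. Calls at a log2 difference of at least 1, that is a change of 2-fold or more in FPKM + 1, made up 1.91% of tested genes, and S100a10 and S100a4 were among them. The call of S100a1 was lost when any 1 of the 3 Dif-FGSC libraries was left out and when no filter on low values was applied.

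**Figure D2:**
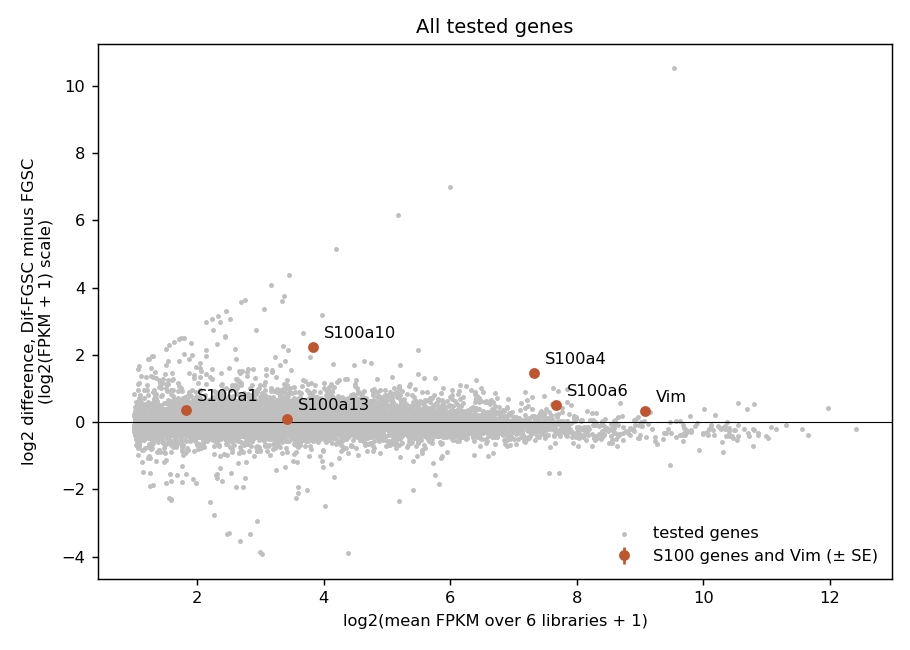
Log2 difference (Dif-FGSC minus FGSC, log2(FPKM + 1) scale) of each tested gene against its mean level over 6 libraries (log2 scale); grey points are the 9162 tested genes and coloured points the 6 tested members ± SE. S100a10 (2.25) and S100a4 (1.47) lie above the main cloud, and S100a13 (0.09) lies inside it.

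The order of the members by level differed between the groups. FPKM is scaled by transcript length, so levels of different genes can be set side by side, but only roughly. The annotation behind the lengths is not given, and S100 transcripts are short (longest reference transcript 498 bases for S100a4 and 783 for S100a6). Levels and ratios between genes are therefore approximate. In Dif-FGSC the order was Vim, S100a6, S100a4, S100a10, S100a13, S100a1 and S100a11, where S100a6 and S100a4 did not differ beyond their spread (229 to 243 and 217 to 243 FPKM). In FGSC it was Vim, S100a6, S100a4, S100a13, S100a10, S100a1 and S100a11, and no neighbours overlapped in their library values. S100a10 thus stood above S100a13 in every Dif-FGSC library and below it in every FGSC library.

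Ratios of FPKM within a library are unchanged when a library is multiplied by a single factor, as in median-ratio scaling, but not by quantile normalization. The ratio of S100a4 to S100a6 was 0.948, 1.02 and 0.985 in Dif-FGSC and 0.558, 0.462 and 0.477 in FGSC. In FPKM the 2 genes were thus about equal in Dif-FGSC, and S100a6 was the higher in FGSC. S100a4 relative to Vim was 0.389 ± 0.0222 in Dif-FGSC and 0.176 ± 0.0082 in FGSC (SD, n = 3 each).

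Summed over the 17 S100 family genes in the table, FPKM reached 482, 520.4 and 518 in Dif-FGSC and 258, 265 and 279 in FGSC, a ratio of means of 1.90. S100a4 made up 46.0 ± 0.938% of this sum in Dif-FGSC and 31.2 ± 2.01% in FGSC. S100a6 made up 46.8 ± 0.677% in Dif-FGSC and 62.7 ± 2.33% in FGSC. S100a10 held 4.43 ± 0.118% in Dif-FGSC and 1.48 ± 0.211% in FGSC, and S100a13 held 1.99 ± 0.260% and 3.51 ± 0.401% in Dif-FGSC and FGSC (SD, n = 3 each). The S100a13 share was lower in every Dif-FGSC library than in every FGSC library, while its level overlapped between the groups. The S100 family took 0.142 ± 0.0057% of all FPKM in Dif-FGSC and 0.071 ± 0.0031% in FGSC.

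**Figure D3:**
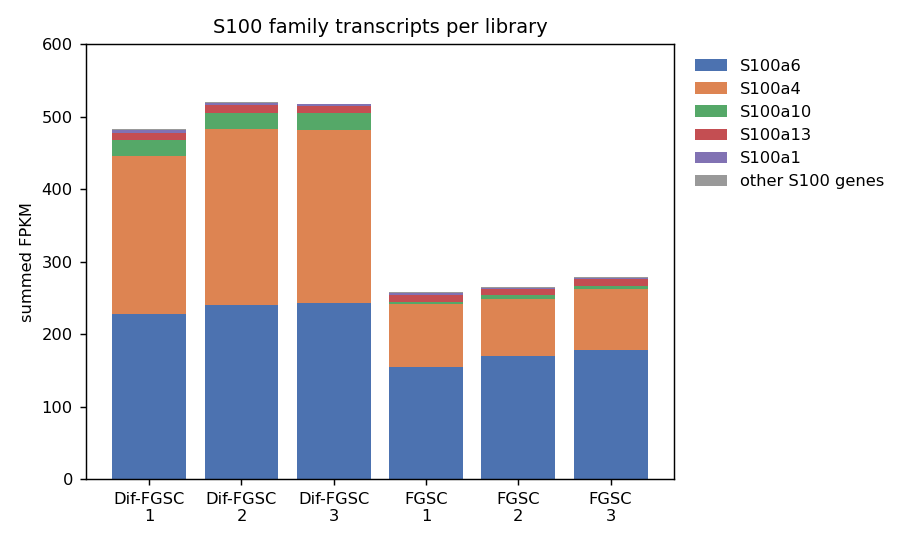
Summed FPKM of S100 family genes in each library, Dif-FGSC left and FGSC right, with a colour per gene stacked from 0. The Dif-FGSC libraries reach 482 to 520.4 FPKM and the FGSC libraries 258 to 279, and the S100a4 segment is about as tall as the S100a6 segment in Dif-FGSC and shorter than it in FGSC.

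The other 9 S100 family genes were low. S100a2, S100a14, S100a16, S100g and S100z were listed at 0 in all 6 libraries, and S100a3 and S100b did not exceed 0.0307 FPKM in Dif-FGSC and 0.0346 FPKM in FGSC. S100a5, which lies between S100a4 and S100a6, stood at 1.23, 0.825 and 0.466 FPKM in Dif-FGSC and at 0.423, 0.106 and 0.266 FPKM in FGSC, from about 4.0 to 12 fragments in Dif-FGSC and 0.99 to 5.0 in FGSC. Every Dif-FGSC library was above every FGSC library, but the gap was small, from 0.466 to 0.423 FPKM, and the gene was below the filter for testing. S100a7a ranged up to 0.206 FPKM in Dif-FGSC and 0.31 FPKM in FGSC.

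Along chromosome 3 expressed S100 genes and those listed at 0 were interleaved. In the RefSeq order of protein-coding genes, used here only for order, S100a1 and S100a13 stand at one end of a block of 12 S100 genes. S100a4, S100a5 and S100a6 follow each other further in, and S100a8 and S100a9 stand at the other end. The block was cut at S100a9. Beyond it lie Pglyrp4 and then S100a7l2, a further S100 gene without deposited values. S100a11 and S100a10 lie next to each other in a second block, 56 protein-coding genes away, and S100a10 was at 22.4 FPKM where S100a11 was at 0.259 FPKM in Dif-FGSC. All 6 fused-type S100 genes in the table, epidermal genes such as Flg and Hrnr that lie between the blocks, were listed at 0. On the S100a1 side of the first block, the flanking genes Chtop and Snapin did not share the higher level of S100a4. Chtop, an RNA export factor, fell (log2 difference -0.16, limma adjusted p = 0.00899). Snapin, a vesicle protein, stood at 13.5 ± 1.08 FPKM in Dif-FGSC and 14.03 ± 0.66 FPKM in FGSC (SD, n = 3 each). On the other side, Pglyrp4 was listed at 0 in all 6 libraries.

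**Figure D4:**
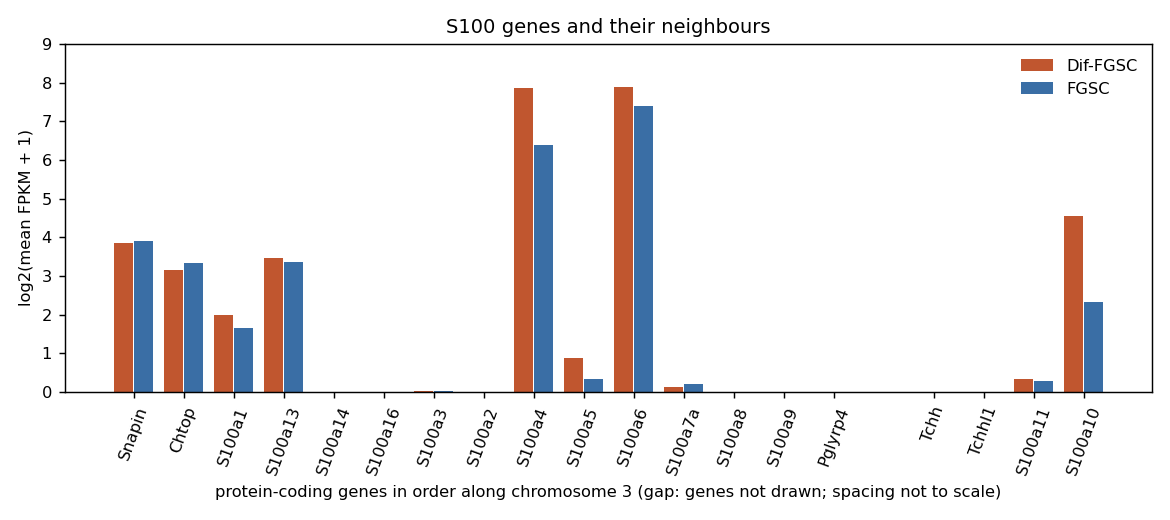
Log2(mean FPKM + 1), drawn as bars from 0, of S100 genes and neighbouring protein-coding genes in their order along the chromosome, Dif-FGSC left and FGSC right in each pair; spacing is not to scale and genes in the gap are not drawn. S100a4 and S100a6 stand highest, S100a10 stands high beside a low S100a11, and S100a8, S100a9, S100a14 and S100a16 are at 0.

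Genes that work with the S100 proteins were examined from lists of symbols outside the 9 members. Of 67 tested genes in these lists, 26 were called higher and 21 lower in Dif-FGSC, beside 36.5% and 28.6% of all tested genes. Among intracellular partners and the plasminogen activation genes linked to S100a10, 8 of 14 tested genes were higher, 4 lower and 2 not called, with a median log2 difference of 0.12. Myh9, the heavy chain of the non-muscle myosin that S100a4 binds, rose to 106 ± 2.98 FPKM in Dif-FGSC, against 58.8 ± 3.13 FPKM in FGSC (log2 difference 0.84 ± 0.043 SE, limma adjusted p = 3.66e-06). Plaur, the receptor of the plasminogen activator urokinase, rose to 29.2 ± 2.03 FPKM in Dif-FGSC, against 16.9 ± 0.881 FPKM in FGSC (limma adjusted p = 2.54e-05). Ahnak, a giant scaffold protein that binds the S100a10 and annexin A2 complex, rose to 4.19 ± 0.0696 FPKM in Dif-FGSC, against 2.86 ± 0.467 FPKM in FGSC (limma adjusted p = 0.00238). Cacybp, the calcyclin-binding protein, fell to 120.3 ± 2.10 FPKM in Dif-FGSC, against 167 ± 3.29 FPKM in FGSC (limma adjusted p = 6.51e-06). The ratio of S100a6 to Cacybp was 1.97 ± 0.0607 in Dif-FGSC and 1.005 ± 0.0872 in FGSC (SD, n = 3 each).

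Annexins are calcium-dependent membrane-binding proteins, and several pair with an S100 dimer. Of 7 tested annexin genes, limma called 1 higher and 2 lower and left 4 uncalled, with a median log2 difference of 0.04. Over all tested genes it called 36.5% higher and 28.6% lower. Anxa2, the partner of S100a10, fell to 68.2 ± 2.75 FPKM in Dif-FGSC, against 80.4 ± 5.73 FPKM in FGSC (log2 difference -0.23 ± 0.054 SE, limma adjusted p = 0.00652). S100a10 and Anxa2 therefore differed in opposite directions. The ratio of Anxa2 to S100a10 FPKM was 3.23, 2.91 and 2.98 in Dif-FGSC and 22.1, 17.2 and 22.3 in FGSC, and the groups did not overlap. Anxa5, which binds phosphatidylserine, fell to 33.9 ± 0.643 FPKM in Dif-FGSC, against 44.2 ± 1.13 FPKM in FGSC (limma adjusted p = 3.98e-05). Anxa11 was called higher (log2 difference 0.32, limma adjusted p = 0.0144), a call lost after quantile normalization (0.0512) and without Dif-FGSC replicate 2 (0.0505). Anxa1, the partner of S100a11, stood at 1.33 ± 0.226 FPKM in Dif-FGSC and 1.09 ± 0.150 FPKM in FGSC and was not called.

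Of 6 genes for receptors of released S100 proteins, only Bsg and Mcam passed the filter for testing. Ager, the receptor for advanced glycation end products, did not exceed 0.0382 FPKM in Dif-FGSC and 0.0565 FPKM in FGSC. Tlr4, the lipopolysaccharide receptor that also binds calprotectin, stood at 0.0224, 0.0516 and 0.0319 FPKM in Dif-FGSC and at 0.162, 0.162 and 0.24 FPKM in FGSC, below the filter for testing. Bsg, basigin, fell to 146 ± 1.45 FPKM in Dif-FGSC, against 175 ± 4.50 FPKM in FGSC (limma adjusted p = 0.000142). Mcam, a cell adhesion molecule, stood at 2.84 ± 0.241 FPKM in Dif-FGSC and 2.86 ± 0.263 FPKM in FGSC (SD, n = 3 each) and was not called.

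Other EF-hand proteins moved in both directions. Of 30 tested genes 8 were higher, 12 lower and 10 not called, with a median log2 difference of -0.09. The shares over all tested genes were 36.5% higher and 28.6% lower. Calm2 and Calm3, which encode the calcium sensor calmodulin, were called lower. Calm2 fell to 145 ± 2.94 FPKM in Dif-FGSC, against 175 ± 2.01 FPKM in FGSC, and Calm3 to 157 ± 2.06 FPKM in Dif-FGSC, against 169.7 ± 2.00 FPKM in FGSC. Their limma adjusted p-values were 7.89e-05 for Calm2 and 0.00419 for Calm3, and the Calm3 call was lost after quantile normalization (0.135). Stim2, a calcium sensor of the endoplasmic reticulum that opens store-operated channels, rose to 23.5 ± 0.643 FPKM in Dif-FGSC, against 13.7 ± 0.232 FPKM in FGSC (limma adjusted p = 2.44e-06). Calu, calumenin of the secretory pathway, rose to 19.1 ± 0.297 FPKM in Dif-FGSC, against 11.5 ± 0.376 FPKM in FGSC (limma adjusted p = 4.13e-06). Rcn1, another EF-hand protein of the endoplasmic reticulum, fell (log2 difference -0.37, limma adjusted p = 2.54e-05), as did Cetn3, a centrin of the centrosome (-0.51, limma adjusted p = 2.24e-05).

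Vimentin was not the only intermediate filament transcript. Of 21 further intermediate filament genes, 11 were listed at 0 everywhere, among them the keratins Krt8 and Krt18 of simple epithelia, and 15 stayed below 0.1 FPKM. All 4 tested genes were called higher, beside 36.5% of all tested genes. Nefh, the heavy neurofilament protein of neurons, stood at 177, 180.02 and 183 FPKM in Dif-FGSC and at 120.3, 115 and 104 FPKM in FGSC (log2 difference 0.66 ± 0.051 SE, limma adjusted p = 2.47e-05), while its usual partners Nefl, Nefm and Ina were listed at 0 in every library. Lmna, the A-type lamin of the nuclear envelope, rose to 26.2 ± 1.09 FPKM in Dif-FGSC, against 20.1 ± 0.821 FPKM in FGSC (limma adjusted p = 0.000228). The B-type lamins Lmnb1 and Lmnb2 differed by 0.11 and 0.16 on the log2 scale, the Lmnb1 call was lost under 8 of 14 alternatives, and the Lmnb2 call was lost after quantile normalization (limma adjusted p = 0.116). Des, desmin of muscle, was at or below 0.0144 FPKM in Dif-FGSC and 0.0597 FPKM in FGSC.

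Of 10 tested linkers and regulators of intermediate filaments, 5 were higher, 2 lower and 3 not called, with a median log2 difference of 0.07. The shares over all tested genes were 36.5% higher and 28.6% lower. Plec, plectin, which ties vimentin to actin and membranes, rose to 1.61 ± 0.0608 FPKM in Dif-FGSC, against 0.97 ± 0.0894 FPKM in FGSC (limma adjusted p = 0.000504). Pak2, a kinase of the cytoskeleton, rose (log2 difference 0.40, limma adjusted p = 0.000171), while Rock2, a kinase that phosphorylates vimentin, fell (-0.49, limma adjusted p = 0.000141).

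**Figure D5:**
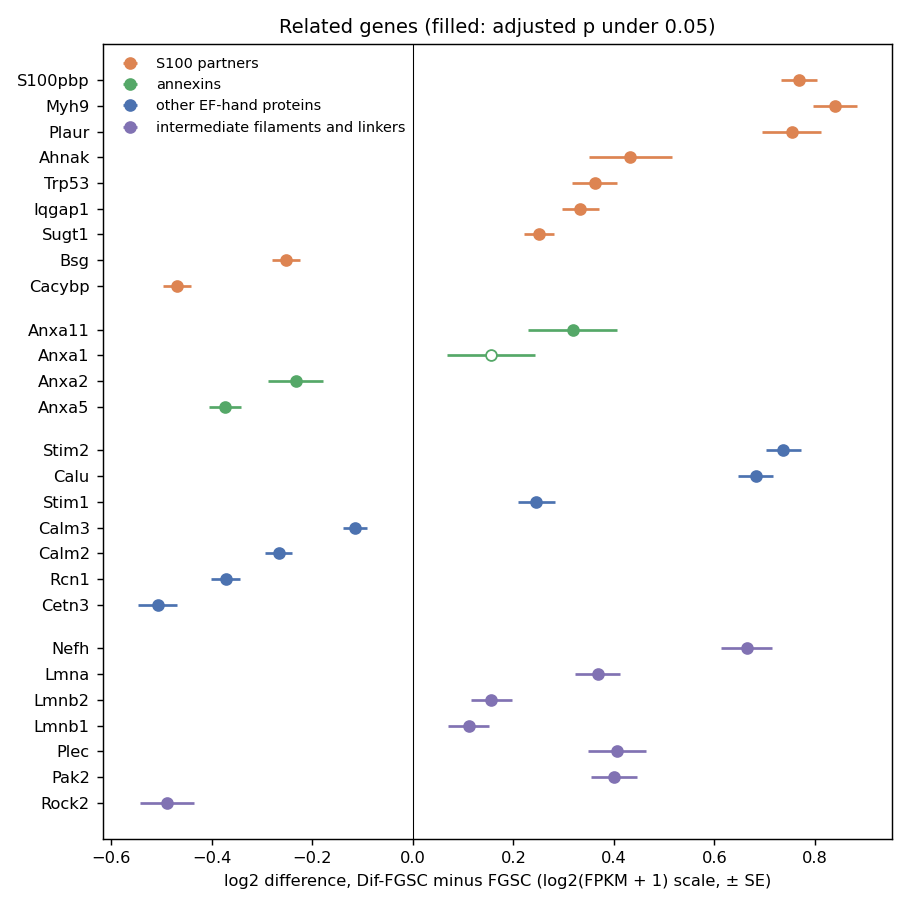
Log2 difference (Dif-FGSC minus FGSC, log2(FPKM + 1) scale, ± SE from the fit) of named partners, annexins, EF-hand proteins and intermediate filament genes, a row per gene; filled points passed limma adjusted p under 0.05. Myh9 (0.84) and Stim2 (0.74) lie to the right, and Cetn3 (-0.51), Rock2 (-0.49) and Cacybp (-0.47) to the left.

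Vim and S100a4 also mark fibroblasts, and the feeder cells differed between the groups, so feeder markers are set beside them. In bulk samples, more cells of a type and more RNA per cell cannot be told apart. Summed FPKM of 23 fibroblast and mesenchyme markers was 4.71 to 4.804 in Dif-FGSC and 5.37 to 5.76 in FGSC, 16 of the 23 stayed below 0.1 FPKM, and Col1a1, a collagen gene typical of fibroblasts, peaked at 0.034 FPKM in Dif-FGSC and 0.0291 FPKM in FGSC. Summed FPKM of 13 granulosa markers was 0.474 to 0.697 in Dif-FGSC and 0.663 to 0.843 in FGSC, with Foxl2, a defining factor, listed at 0. The fibroblast sum was lower in every Dif-FGSC library than in every FGSC library, and the granulosa sums overlapped. Of the 13 granulosa markers, 11 stayed below 0.1 FPKM in every library. The part of feeder cells in the levels of Vim and S100a4 was not tested. Most of the fibroblast sum was Zeb1 and Zeb2, transcription factors that are not specific to fibroblasts. Zeb1 stood at 2.70 ± 0.154 FPKM in Dif-FGSC and 3.004 ± 0.141 FPKM in FGSC and was not called, and Zeb2 fell to 0.883 ± 0.0413 FPKM in Dif-FGSC, against 1.16 ± 0.0224 FPKM in FGSC (limma adjusted p = 0.0115). Of 8 epithelial markers 6 stayed below 0.1 FPKM, with sums of 0.179 to 0.256 in Dif-FGSC and 0.119 to 0.367 in FGSC, and Cdh1, the epithelial cadherin, peaked at 0 FPKM in Dif-FGSC and 0.013 FPKM in FGSC.

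Blood cell marker lists differed in direction. Summed FPKM of 6 leukocyte markers was 437 to 447 in Dif-FGSC and 338 to 346 in FGSC, with none of the 6 below 0.1 FPKM, and limma called 4 of the 6 higher and 2 not. Among all tested genes 36.5% were called higher. Laptm5 differed most in FPKM among the leukocyte markers, with 187 ± 4.59 FPKM in Dif-FGSC and 99.8 ± 4.83 FPKM in FGSC. The markers not called were Coro1a and Cd53. Coro1a stood at 132 ± 1.85 FPKM in Dif-FGSC and 134 ± 3.31 FPKM in FGSC. Cd53 stood at 61.9 ± 1.21 FPKM in Dif-FGSC and 64.1 ± 0.168 FPKM in FGSC. Summed FPKM of 14 mast cell and basophil markers was 745 to 752 in Dif-FGSC and 587 to 630 in FGSC. Of 5 tested genes 4 were called higher, and Cpa3, a mast cell protease, was not called. Most of that sum was Cpa3, Gata2 and Kit. They averaged 301, 248 and 114 FPKM in Dif-FGSC and 288, 185 and 89.0 FPKM in FGSC. The other tested genes of the list were Mcpt8 and Srgn, both called higher. Mcpt8 stood at 8.21 ± 0.925 FPKM in Dif-FGSC and 0.596 ± 0.147 FPKM in FGSC (log2 difference 2.53 ± 0.093 SE). Srgn stood at 74.1 ± 2.75 FPKM in Dif-FGSC and 51.4 ± 2.84 FPKM in FGSC. The untested markers of this list were below the filter, and 5 of the 14 stayed below 0.1 FPKM in every library. The part of leukocytes and of mast cells in the levels of Vim and the S100 genes was not tested. Neutrophil markers, set beside S100a8 and S100a9, summed to 32.2 to 34.8 FPKM in Dif-FGSC and 35.7 to 39.2 FPKM in FGSC. Most of that sum was Cxcr2, a chemokine receptor, at 27.4 ± 0.444 FPKM in Dif-FGSC and 27.3 ± 1.91 FPKM in FGSC (SD, n = 3 each), which was not called. Of 3 tested neutrophil markers 2, Mmp8 and Ctsg, were called lower and none higher, beside 28.6% of all tested genes called lower. Their values, and those of the untested Lcn2, which was higher in Dif-FGSC, are given under other observations. The neutrophil granule gene Elane was listed at 0, Mpo peaked at 0.020 FPKM in Dif-FGSC and was listed at 0 in FGSC, and 9 of 16 markers stayed below 0.1 FPKM in every library. Macrophage and monocyte markers summed to 11.3 to 11.4 FPKM in Dif-FGSC and 24.3 to 24.9 FPKM in FGSC, but the 2 tested genes of that list went opposite ways. Adgre1, the macrophage receptor F4/80, fell to 4.28 ± 0.173 FPKM in Dif-FGSC, against 20.3 ± 0.324 FPKM in FGSC (limma adjusted p = 4.18e-08), and Cd68, a lysosomal glycoprotein, rose to 6.19 ± 0.118 FPKM in Dif-FGSC, against 3.19 ± 0.271 FPKM in FGSC (limma adjusted p = 1.67e-05).

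Among the genes most alike to S100a4 over the 6 libraries, by Pearson correlation of log2(FPKM + 1), were Mxd1 and Ehbp1l1 (r of 0.9998 and 0.9991), and those most alike to Vim were Ints13, Fam117b and Ndufa5 (0.9998, 0.9995 and 0.9995). Among the members, S100a4 and Vim correlated with r = 0.9977, S100a10 with S100a4 at 0.9889, and S100a13 with S100a4 at 0.405. All points share the same 6 libraries in 2 groups, so a gene that differs between the groups and varies little within them will score high, and these values are descriptions.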

How the data were processed

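Polyadenylated RNA from Trizol extracts was sequenced from stranded KAPA libraries, per the labels' protocols. The authors deposited FPKM values, that is fragment counts scaled by transcript length and library total, in rows named by symbol. HISAT2 4.8.2, Cufflinks 2.2.1 and build mm9 are named in the submitters' processing notes, without a role. For annotation and strand setting the entry is: not given in the sources used here. Overlapping or near-identical genes are therefore uncertain. FPKM is relative to each library's total, so a change in very abundant genes shifts all others. Columns prefixed con were read as control and assigned to FGSC, and those prefixed dif to Dif-FGSC. The con assignment is a reading of the name, and every direction rests on it. Of 24674 rows, 26 symbols had the form of dates and were kept. Where a symbol stood in several rows (2 symbols), the row with the larger mean entered. A single value outside the named columns was ignored.

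Differences were fitted with limma 3.58.1 in R 4.3.3 (lmFit, and eBayes with its trend option) on log2(FPKM + 1). The 9162 genes whose mean over the 6 libraries reached 1 FPKM entered, and calls needed an adjusted p (Benjamini-Hochberg, over all these genes) under 0.05. The script was tested on simulated data. For 3 against 3 libraries the smallest two-sided p of an exact permutation test on 1 gene is 0.1. No count model was used. Low values among 6024 genes with 1 reference transcript numbered 395 to 436 per library. The share of them within 0.1 of whole fragments was 67.4% to 70.3% per library. Evenly spread values would give 20% at a depth fixed beforehand. The depth was fitted to these same values, so 20% is not an exact reference for this share. Approximate fragments use the longest reference transcript, and the floor is 3 fragments. Alternatives changed the pseudocount, filter, scaling, trend, libraries and replicate block. The members and lists were chosen with earlier results of these data known. The genes named were the members, fixed partners and markers, the 3 most alike genes and cluster neighbours. Each list of related genes, but not the marker lists, added up to 4 called genes. These had non-overlapping groups and the largest log2 differences. Some genes that this rule names are not reported here. Genes named outside this rule were chosen after their values were seen. They were S100pbp, the other S100 family genes, Calm2, Calm3, Stim1, Anxa1, Trp53, Iqgap1, Sugt1 and Mcam. Of the intermediate filament genes they were Nefl, Nefm, Ina, Krt8, Krt18 and Des. Of the cell type markers they were Lcn2, Mmp8, Ctsg, Cxcr2, Zeb1, Zeb2, Adgre1, Cd68, Gata2, Mcpt8, Srgn, Laptm5, Coro1a and Cd53.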

Additional observations from a re-analysis of the deposited data

How the results depend on the processing

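The alternatives changed the pseudocount (0.1 or 0.5 FPKM), the filter (none, or a mean of 5 FPKM), the scaling (median-ratio or quantile), the intensity trend, the libraries (each left out in turn) and the replicate block. Members called numbered 5, and 4 to 5 with a library left out. Genes called among all tested genes numbered 5965, and 5301 to 5966 with a library left out. Genes called in the related lists numbered 47, and 38 to 45 with a library left out. Every tested member kept a positive log2 difference under every alternative run: 2.16 to 2.48 for S100a10, 1.43 to 1.56 for S100a4, 0.44 to 0.60 for S100a6, 0.30 to 0.58 for Vim, 0.23 to 0.50 for S100a1 (no value with the filter at 5 FPKM) and 0.01 to 0.18 for S100a13. Snapin, not called under any alternative, ranged from -0.10 to 0.0021 with a library left out and reversed without Dif-FGSC replicate 1; the cause was not tested. With the replicate block, the number in the column name, 5798 genes were called, 5 members and 45 of the related genes. Same-numbered libraries deviated together with correlations of 0.131, 0.0123 and 0.173, so the numbers were not taken as pairs, and Dif-FGSC library 2 did not correlate best with its own number. Depth limits S100a11, S100a5, S100a8 and S100a9, which lie near or under 3 fragments in some libraries.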

Other observations

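S100pbp, which encodes an S100-binding protein, stood at 11.5, 11.8 and 11.2 FPKM in Dif-FGSC and at 6.20, 6.39 and 6.43 FPKM in FGSC (log2 difference 0.77 ± 0.036 SE, limma adjusted p = 2.71e-06), higher in 3 of 3 libraries. Lcn2, an iron-binding protein of neutrophil granules and of inflamed tissues, stood at 2.02, 1.13 and 2.48 FPKM in Dif-FGSC and was listed at 0.0429, 0 and 0 FPKM in FGSC, below the filter for testing. Among the neutrophil markers whose sum is given above, Mmp8, the neutrophil collagenase, fell to 0.379 ± 0.0769 FPKM in Dif-FGSC, against 3.60 ± 0.22 FPKM in FGSC (limma adjusted p = 9.90e-07). Ctsg, the granule protease cathepsin G, fell to 3.34 ± 0.253 FPKM in Dif-FGSC, against 6.17 ± 0.0478 FPKM in FGSC (limma adjusted p = 1.59e-05).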
